A study of Drosophila melanogaster with 3 samples.

Results

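The genes described here encode the proteins of the small (40S) subunit of the cytosolic ribosome. They were taken as every protein-coding gene of the fly annotation whose symbol is RpS followed by a digit, plus sta (stubarista, the small-subunit protein called SA in other animals), and they number 39 of 13968 protein-coding genes. Genes of the mitochondrial ribosome (mRpS) and the S6 kinases were not members. The measurements are transcription factor ChIP-seq peaks, places where DNA came down with a protein, in mixed-sex whole Drosophila melanogaster embryos aged 0 to 24 h. The embryos were from 1 transgenic line, labelled strain CG10274-GFP, that stably carries CG10274 with GFP at its C-terminus, and the precipitation used an antibody to GFP. The samples were 3 biological replicates of 1 group, with no second genotype or treatment, and the control data set that the labels name was not analysed here.

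The small subunit binds the mRNA, holds the decoding site and moves along the message during initiation. Its proteins sit in a head, a body and a platform, and their genes are highly active in growing cells. In flies, loss of a single copy of many of them slows growth and thins the bristles, the Minute phenotype. Ribosomal protein promoters of flies often start transcription in a polypyrimidine stretch called the TCT initiator, and many hold the DNA replication-related element (DRE), the binding site of the factor DREF.

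Promoter sequences are shown first for 10 genes, because their letters and their peaks are set side by side below. They are RpS28b, RpS10b and RpS19a, each followed by its second copy, then RpS25 and RpS27, which had high scores, then RpS3 and RpS9, which have the initiator letters but no peak in the combined list. Each runs from 100 bases before to 20 bases after the transcription start site (TSS) that most transcripts of the gene share, 5′ to 3′ on the strand of the gene, read from the RefSeq release 6 genome (dm6). Capitals mark ATCGAT, the core of the DRE, and CTTT starting within 10 bases of the TSS, the core letters of the TCT initiator. The places are chrX:9554523-9554643 (plus strand) for RpS28b, chr3R:30022628-30022748 (minus) for RpS28a, chrX:19597940-19598060 (plus) for RpS10b and chr3R:27652660-27652780 (plus) for RpS10a. They are chrX:16637794-16637914 (plus) for RpS19a, chr3R:23933510-23933630 (minus) for RpS19b and chr3R:11216267-11216387 (minus) for RpS25. They are chr3R:25247494-25247614 (minus) for RpS27, chr3R:23358712-23358832 (plus) for RpS3 and chr3L:9511511-9511631 (minus) for RpS9.
RpS28b: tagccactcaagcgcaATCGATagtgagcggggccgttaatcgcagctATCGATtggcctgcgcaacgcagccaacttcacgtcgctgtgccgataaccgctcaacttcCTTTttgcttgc
RpS28a: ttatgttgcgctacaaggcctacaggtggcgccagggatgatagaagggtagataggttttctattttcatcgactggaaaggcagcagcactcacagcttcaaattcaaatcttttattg
RpS10b: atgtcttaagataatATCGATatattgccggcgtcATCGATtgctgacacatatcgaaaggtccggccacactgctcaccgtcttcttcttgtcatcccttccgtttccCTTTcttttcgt
RpS10a: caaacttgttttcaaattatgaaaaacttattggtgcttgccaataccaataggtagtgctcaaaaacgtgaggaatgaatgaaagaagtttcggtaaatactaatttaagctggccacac
RpS19a: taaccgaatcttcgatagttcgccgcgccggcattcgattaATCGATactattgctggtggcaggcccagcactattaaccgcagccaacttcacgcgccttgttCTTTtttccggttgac
RpS19b: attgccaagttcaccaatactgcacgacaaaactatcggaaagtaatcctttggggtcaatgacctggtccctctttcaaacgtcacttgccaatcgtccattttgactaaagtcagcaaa
RpS25: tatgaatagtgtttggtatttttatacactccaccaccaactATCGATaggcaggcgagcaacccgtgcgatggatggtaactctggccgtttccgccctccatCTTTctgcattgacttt
RpS27: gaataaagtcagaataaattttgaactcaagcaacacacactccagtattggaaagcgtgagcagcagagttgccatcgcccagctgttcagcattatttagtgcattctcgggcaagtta
RpS3: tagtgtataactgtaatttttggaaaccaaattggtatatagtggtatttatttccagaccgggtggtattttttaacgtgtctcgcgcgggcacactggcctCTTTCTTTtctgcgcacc
RpS9: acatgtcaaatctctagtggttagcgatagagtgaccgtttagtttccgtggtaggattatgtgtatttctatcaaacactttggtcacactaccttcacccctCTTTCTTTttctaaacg

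Peaks were counted at the small-subunit genes by their summits. A gene was called when a summit lay within 500 bp of any of its annotated TSSs, and the combined list is the authors' list of 2988 peaks that passed their test of reproducibility between replicates (IDR). In that list 23 of the 39 genes were called, 59.0% (95% Wilson interval 43.4 to 72.9, which covers the counting of genes only), against 11.1% of all protein-coding genes. Within 100 bp of a TSS the combined list held a summit at 22 of the 39 genes, 56.4%, against 3.35% of all protein-coding genes. Counting only combined peaks that a top peak of both other replicates overlapped, 13 members were left without replicate 1, 12 without replicate 2 and 19 without replicate 3. The share of all protein-coding genes under this rule is not given here. The fall from 23 is thus not read as particular to these genes. In the pooled list of 30000 entries, which the authors describe as peaks and background, 36 of the 39 had a summit, 92.3%, against 42.6% of all protein-coding genes.

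The replicates were then compared on their top peaks, the 2988 highest-scoring entries of each. Replicate 1 had a top peak at 21 of the 39 genes, 53.8%, against 11.1% of all protein-coding genes. Replicate 2 had one at 23, 59.0%, against 10.6%, and replicate 3 at 15, 38.5%, against 7.93%. The share was above that of all protein-coding genes in each replicate, and lowest in replicate 3 for both. Top peaks of all 3 replicates lay at 12 of the 39 genes, 30.8%, against 5.33% of all protein-coding genes. Over the whole lists of 30000 entries the counts were 34 members (87.2%) in replicate 1, against 49.7% of all protein-coding genes, 34 (87.2%) in replicate 2, against 36.8%, and 17 (43.6%) in replicate 3, against 23.5%.

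The mean share with a top peak was 50.4% ± 10.7 for the small-subunit genes and 62.9% ± 13.6 for the 53 large-subunit genes (RpL and RpLP; SD, n = 3 replicates). The small-subunit share minus the large-subunit share was -16 points in replicate 1, -12.7 in replicate 2 and -8.71 in replicate 3, a mean of -12.5 ± 3.64. The small subunit was thus lower in 3 of 3 replicates. A two-sided exact sign-flip permutation test gave p = 0.25, the smallest p that 3 replicates allow. The replicates share the same genes, so neither the SD nor the test covers the counting of genes. In the combined list the Wilson intervals overlapped, 43.4 to 72.9% for the small subunit and 60.4 to 83.6% for the large. The order held for top peaks and not for every list. Over the whole lists the small-subunit and large-subunit shares were 87.2% and 86.8% in replicate 1, 87.2% and 84.9% in replicate 2, and 43.6% and 50.9% in replicate 3. In the pooled list they were 92.3% and 83.0%. The 26 mitochondrial small-subunit genes averaged 16.7% ± 5.88 and all protein-coding genes 9.89% ± 1.71.

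**Figure D1:**
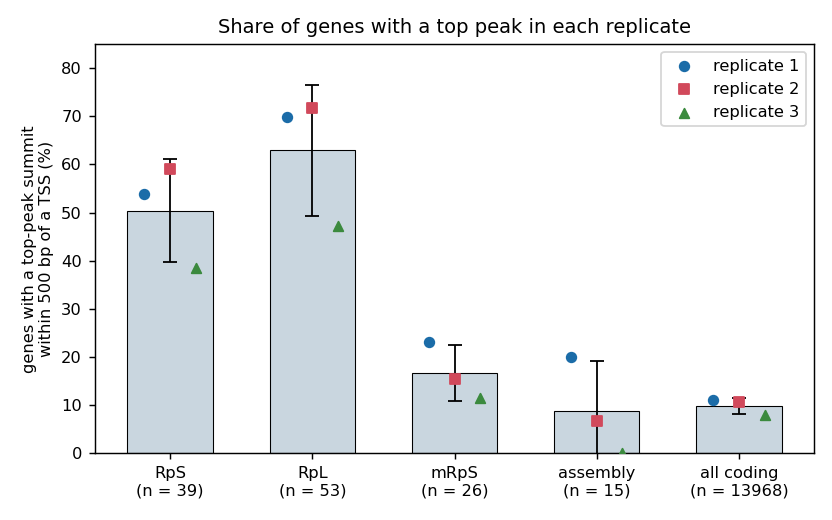
Share of genes (%, vertical axis) with a top-peak summit within 500 bp of a TSS, for the small-subunit genes, large-subunit genes, mitochondrial small-subunit genes, small-subunit assembly genes and all protein-coding genes. Bars are means over 3 replicates, error bars are SD and points are single replicates; the small-subunit genes averaged 50.4%, against 9.89% of all protein-coding genes.

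The small-subunit assembly genes, 15 genes whose products build the subunit or attach to it, had a combined peak at 2, or 13.3%, against 11.1% of all protein-coding genes. Rack1, a protein that sits on the head of the finished subunit, had rank 735 with its summit at -13 bp, negative positions being upstream of the TSS. Its relative score was 1.62 in replicate 1 and 1.37 in replicate 2, with no entry in replicate 3. Relative scores divide the authors' peak score by a median of the same replicate. It was taken over the 2292 combined peaks that every replicate list holds. A value of 1 is thus typical of those peaks, which leave out part of the 2988. A member below 1 can lie in the first 1494 of the combined list, as sta did at rank 1191. The other called gene was nop5, a box C/D small nucleolar RNA protein, with rank 2892 and its summit at -180 bp. The mean share with a top peak was 8.89% ± 10.2 in this list, against 9.89% ± 1.71 of all protein-coding genes (SD, n = 3 replicates each).

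Among the called members RpS27, a zinc-binding protein of the subunit, stood highest. RpS27 had a combined score of 1033 (rank 132 of 2988, summit at 5 bp) and relative scores of 3.33, 4.96 and 4.99 over replicates 1 to 3, averaging 4.43 ± 0.950 (SD, n = 3). It was the only member among the first 300 combined peaks, and its window also held the TSS of Nup37. RpS28b, which lies at the mRNA exit of the subunit, had rank 333 and relative scores of 1.93, 2.70 and 2.43, a mean of 2.35 ± 0.387 (SD, n = 3). RpS10b, a protein of the head near the mRNA entry, had rank 337 and relative scores of 1.97, 2.59 and 2.46, a mean of 2.34 ± 0.325 (SD, n = 3). The lowest value of RpS27 was above every value of RpS28b and RpS10b, whose ranges overlapped.

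RpS25, a head protein needed for initiation on some viral RNAs in yeast and human cells, had rank 370 and relative scores of 1.89 and 2.23 in replicates 1 and 2. RpS4, a protein of the body, had rank 469 with 2.38 and 2.01, and RpS5a, a head protein at the mRNA exit, had rank 531 with 1.51 and 2.16. These 3 genes had no entry in replicate 3. RpS21, which in flies binds sta, had rank 459 and relative scores of 1.65, 2.26 and 1.82, a mean of 1.91 ± 0.316 (SD, n = 3). RpS16, whose tail reaches the peptidyl site, had rank 574 and relative scores of 1.52, 1.85 and 1.6, a mean of 1.65 ± 0.173 (SD, n = 3). RpS21 and RpS16 were above 1 in every replicate.

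RpS18 of the head had rank 682 and relative scores of 1.53, 1.18 and 1.23. RpS19a, whose human counterpart is mutated in Diamond-Blackfan anaemia, had rank 831 and relative scores of 1.42, 1.29 and 1.23, a mean of 1.31 ± 0.0978 (SD, n = 3). RpS15Aa had rank 988 and relative scores of 0.975, 1.18 and 1.71, so its replicates fell on both sides of 1. RpS20 of the head had rank 1054 with 1.01 and 1.20 in replicates 1 and 2 and no entry in replicate 3. Its summit, at -139 bp, was the farthest from a TSS of all 23.

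The other called members described here ranked from RpS3A at 1069 to RpS27A at 2205. RpS3A, of the platform, had a relative score of 0.972 in replicate 1 and no entry in the other replicates. RpS12, known in flies for its part in the competition between cells of different ribosomal gene dose, averaged 1.08 ± 0.128, and RpS6, the substrate of the S6 kinases, 0.819 ± 0.163 (SD, n = 3 each). RpS23 of the decoding site averaged 1.09 ± 0.403, RpS7 0.888 ± 0.265 and RpS29 0.712 ± 0.264 (SD, n = 3 each). Sta had 0.887 and 0.908 in replicates 1 and 2, and RpS27A, made as a fusion with ubiquitin, had 0.456 and 0.824. Neither sta nor RpS27A had an entry in replicate 3.

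The ranks of the 23 ran from 132 to 2308 with a median of 1054, and 17 lay in the first 1494 of the 2988. Their median combined score was 269, against 236 at the other protein-coding genes with a combined peak. The relative scores of members kept a similar order between replicates, with Spearman's rho of 0.847 between replicates 1 and 2 (n = 22 genes), 0.79 between 1 and 3 and 0.847 between 2 and 3 (n = 14 genes each), given as a description across genes of shared libraries. Of the 23 peaks, 11 shared their window with the TSS of another protein-coding gene, and in 23 of 23 the member's own TSS was the nearest. Neither these counts nor the 17 above are given for other called genes, so none is read as particular to the members.

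**Figure D2:**
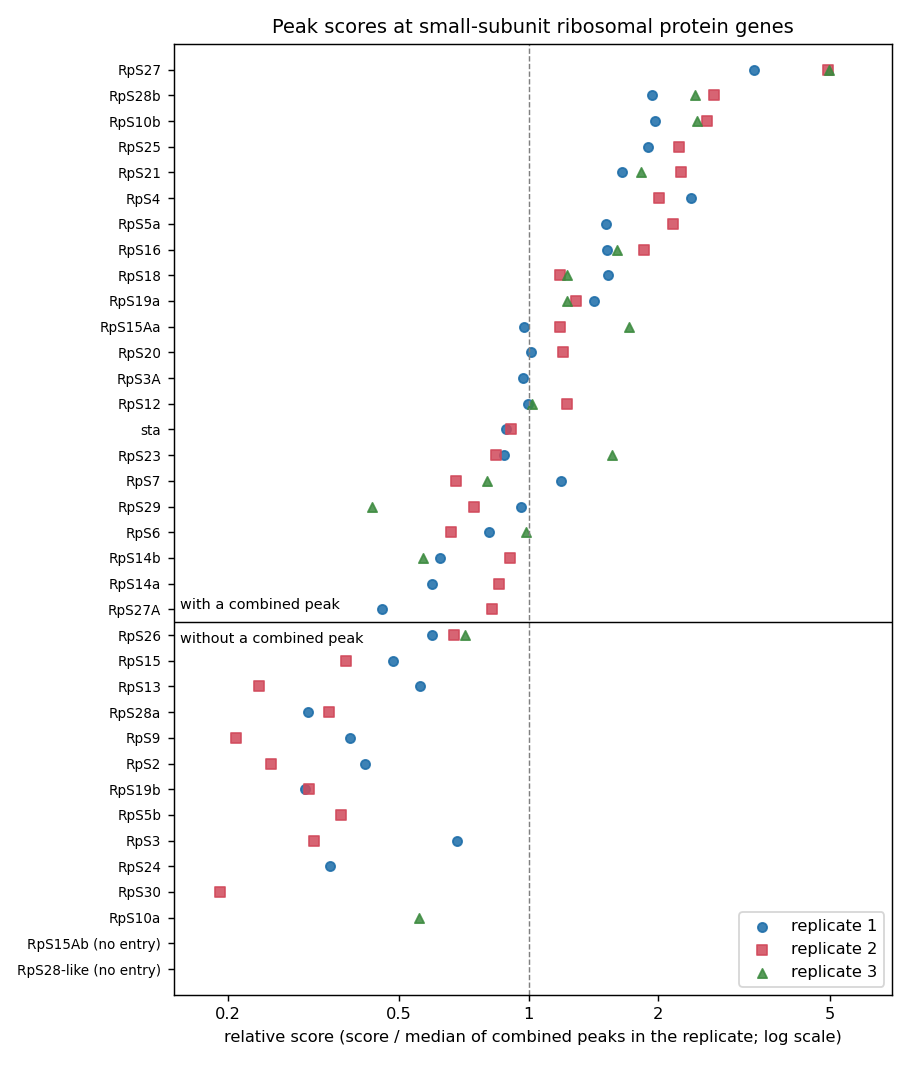
Relative score (horizontal log axis) at 36 of the 39 genes, ordered by rank in the combined list and then in the pooled list, with 1 point per replicate and a dashed line at 1. RpS27 lies to the right of all others, between 3.33 and 4.99, and a missing point means no entry within 500 bp of a TSS.

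Replicate 3 lacked entries that the others had. Of the 23 called members, 9 had no entry in replicate 3, or 39.1%, against 41.0% of the large-subunit peaks (16 of 39), 21.3% of all combined peaks and 28.6% of the combined peaks at other protein-coding promoters. RpS25, RpS4, RpS5a, RpS20, RpS3A, sta, RpS14a and RpS27A were among them, and over the 9 the nearest replicate 3 entry was 1140 to 223460 bp away. The 14 that were present lay within 42 bp of the combined summit. Among the first 600 combined peaks 7.5% had no replicate 3 entry, and 3 of the 8 members ranked there had none. Replicate 1 lacked none of the 23, and replicate 2 lacked RpS3A. Why replicate 3 lacks these entries was not tested.

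Summits at the small-subunit genes lay close to the TSS. The median position was -21 bp (quartiles -37 and -2.5, range -139 to 18, n = 23), against -145 bp (quartiles -251 and -59.8, n = 1524) at the other protein-coding genes with a combined peak. Within 50 bp of a TSS lay 18 of the 23, or 78.3%, against 12% of the other genes. The other genes include large-subunit genes and neighbours counted on the members' own peaks, such as Rok at -461 bp and CG4294 at -424 bp. What counting every gene with a TSS within 500 bp adds to the contrast was not tested. The 39 called large-subunit genes had a median of -15 bp. In the replicates' own lists the median for the called members was -4 bp in replicate 1 (n = 23), -21.5 in replicate 2 (n = 22) and -20.5 in replicate 3 (n = 14). For the 14 members in all 3 lists, the summits of 1 gene spread over a median of 27.5 bp (7 to 62), so differences of that size between genes are within the spread of replicates.

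**Figure D3:**
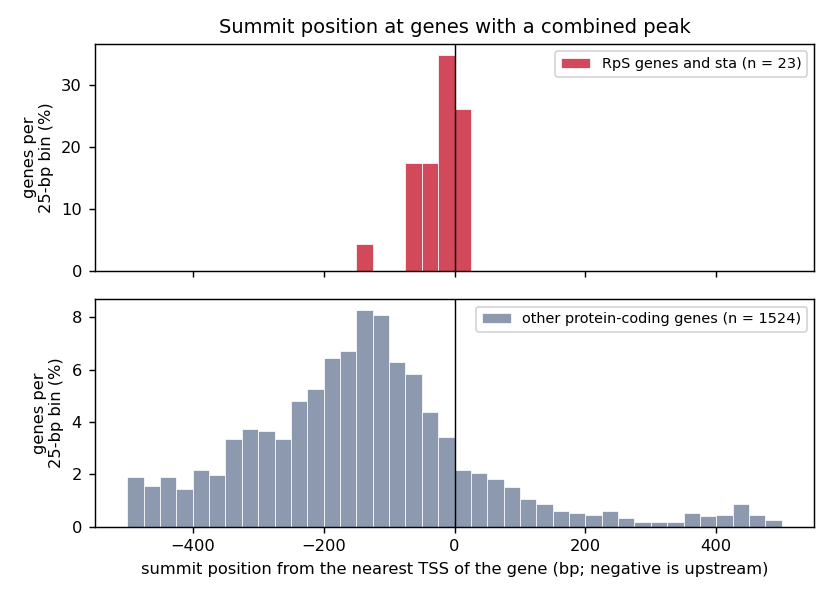
Summit position from the nearest TSS of the gene (bp, negative is upstream) for the 23 small-subunit genes (upper panel) and 1524 other protein-coding genes (lower panel) with a combined peak, as percent of genes per bin. The small-subunit summits lie between -139 and 18 bp, while the others have a median of -145 bp.

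The 16 genes without a combined peak were followed in the pooled list, where 13 of them had a summit, with a median score of 70.3. RpS26, at the mRNA exit, stood outside the limit of the combined list with a score of 124 (rank 3155, summit at -19 bp) and relative scores of 0.596, 0.669 and 0.711, a mean of 0.659 ± 0.0582 (SD, n = 3). Inside the limit RpS27A had a combined score of 161 (rank 2205). RpS26 lay among the top peaks in replicates 2 and 3, and outside them in replicate 1.

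RpS15 of the head had a pooled score of 94.8 (rank 4613, summit at 34 bp) and RpS13 had 92.3 (rank 4824, 3 bp). The relative scores in replicates 1 and 2 were 0.484 and 0.377 for RpS15 and 0.558 and 0.236 for RpS13. Neither had an entry in replicate 3. RpS9 had a pooled score of 70.3 (rank 7517, 90 bp) and RpS2, of the mRNA entry, 64.0 (rank 8804, 158 bp). Their relative scores in replicates 1 and 2 were 0.384 and 0.209 for RpS9 and 0.416 and 0.252 for RpS2. Those came from summits at 90 and -77 bp for RpS9 and at 31 and 174 bp for RpS2. RpS3, which also lines the mRNA entry, had 48.8 (rank 14879, 22 bp). Its relative scores were 0.681 in replicate 1, from a summit at 69 bp, and 0.318 in replicate 2, from a summit at 312 bp. Replicate 1 alone had RpS3 among its top peaks. RpS24 had 46.2 (rank 16602, -95 bp) and RpS30, made as a fusion with a ubiquitin-like protein, 43.7 (rank 18519, 7 bp). RpS24 had an entry in replicate 1 alone (0.346, summit at 142 bp) and RpS30 in replicate 2 alone (0.192, summit at 7 bp). Entries this far down a list that includes background were not read as binding.

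Flies carry 6 of these proteins as duplicated genes, several of whose second copies are known for expression biased to the germline. In 5 of the 6, exactly 1 copy had a combined peak, and the exception was the tandem pair RpS14b and RpS14a. RpS28b had relative scores of 1.93, 2.70 and 2.43, while RpS28a had 0.307 and 0.344 in replicates 1 and 2 and no entry in replicate 3, and RpS28-like was in no list. RpS10b had 1.97, 2.59 and 2.46, while RpS10a had 0.555 in replicate 3 alone. In both sets the values of the copies did not overlap. The copies were sorted by the combined list, which rests on these same replicates, so this is no separate support. RpS10a had 1 value only, from a summit at 266 bp, which was among the top peaks of replicate 3 (rank 2856). The RpS28a summits lay at 280 bp in replicate 1 and 239 bp in replicate 2, and RpS28-like had no value.

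RpS5a had 1.51 and 2.16 in replicates 1 and 2, while RpS5b had 0.367 in replicate 2 alone, from a summit at 205 bp. RpS19a had 1.42, 1.29 and 1.23, while RpS19b had 0.303 and 0.309 in replicates 1 and 2, from summits at 37 and -135 bp. RpS15Aa had 0.975, 1.18 and 1.71, while RpS15Ab was in no list. RpS14b had 0.624, 0.906 and 0.568 and RpS14a, which lies beside it, 0.596 and 0.852, values that overlap. The 31-base words around the TSSs were unique in the genome for RpS10a, RpS19b, RpS28a, RpS28-like and RpS5b at 100%, and for RpS15Ab at 88.7%, the lowest share of all 39 members. RpS10a, RpS15Ab and RpS28a have no annotated intron.

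**Figure D4:**
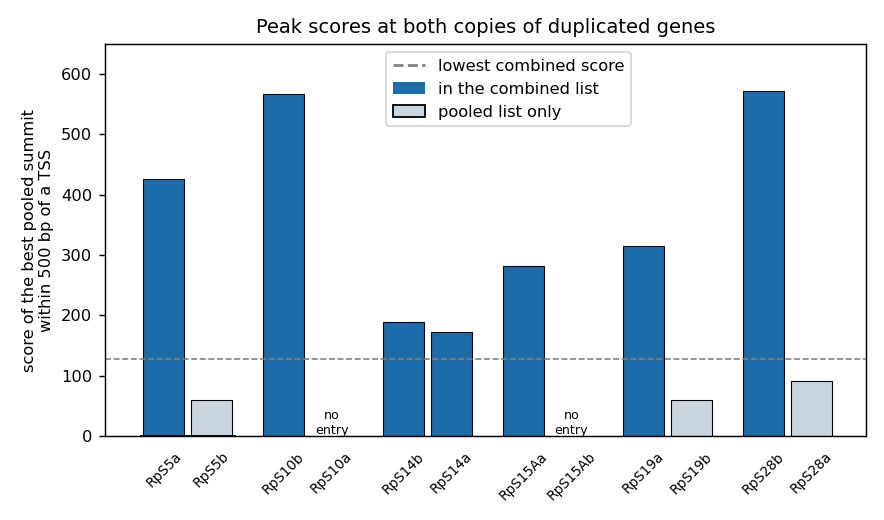
Authors' score of the best pooled summit within 500 bp of a TSS (vertical axis) at both copies of 6 duplicated genes, with dark bars for genes in the combined list, light bars for genes in the pooled list only and a dashed line at the lowest combined score, 128. RpS14b and RpS14a both pass the line, and in the other pairs 1 copy does.

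The genes were then split by chromosome and by place in the subunit. On the X chromosome 9 of 9 members had a combined peak, against 14 of 30 (46.7%) elsewhere. Among all protein-coding genes the share was 11.5% on X and 11.0% elsewhere. RpS5b, RpS10a, RpS15Ab, RpS19b, RpS28a and RpS28-like all lie off X and none of them was called, and without these 6 the share off X was 14 of 24, or 58.3%. This last split was chosen after the values were seen. The large-subunit genes had 6 of 6 called on X and 33 of 47 off it. Proteins of the head had 11 of 18 called, 61.1% (Wilson 38.6 to 79.7), and those of the body and platform 12 of 21, 57.1% (Wilson 36.5 to 75.5), intervals that overlap over most of their length. RpS28-like stood in the body and platform list; placed with RpS28a and RpS28b, a choice made after seeing the data, it turned the order, to 11 of 19 (57.9%) for the head and 12 of 20 (60.0%) for the body and platform.

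Promoter letters were read from 250 bases before to 50 after the TSS that most transcripts share, on both strands unless said, and a match is a description of letters, not a bound site. The DRE, TATCGATA, was in 13 of 39 members (33.3%), against 9.24% of all protein-coding promoters. It was in 9 of the 23 with a combined peak (39.1%) and 4 of the 16 without (25%). The TCT letters, CTTT on the gene strand starting within 10 bases of the TSS, were in 22 of 39 (56.4%), against 10.7%. They were in 15 of the 23 with a peak (65.2%) and 7 of the 16 without (43.8%). With any annotated TSS of the gene, an alternative chosen after seeing the data, the TCT share was 74.4%, against 14.9% of all protein-coding genes. Counted so, the letters were in 20 of the 23 with a peak (87%) and 9 of the 16 without (56.2%).

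Some of the other words were as frequent as in the rest of the genome and some were not. The Motif 1 core GGTCACAC was in 12.8% of members, against 7.78% of all protein-coding promoters. The E-box CACGTG was in 2.56%, against 4.23%, and TATAAA in 48.7%, against 45.6%. With only 100 bases before the TSS, TATAAA was in 15.4% of members, against 23.8%, so its order turned. GAGAG was in 10.3%, against 30.3%, so it was less frequent at the members. Of the words chosen after seeing the data, ATCGAT, which lies inside TATCGATA, was in 43.6% of members, against 23.1%. CCGGAAA was in 20.5%, against 2.93%, and in 37.7% of the large-subunit promoters. ACCCTAC was in 2.56%, against 1.07%.

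At the small-subunit summits the DRE core was the most frequent of these words. ATCGAT lay within 50 bp of the summit at 10 of the 23 small-subunit peaks (43.5%), against 5.14% of other promoter peaks (n = 1108), and in 2.17% of flanks 500 bp away from the small-subunit summits. The large-subunit peaks held it at 25.6%. CCGGAAA lay there at 17.4% of the small-subunit peaks, against 41.0% of the large-subunit peaks and 1.44% of other promoter peaks. ACCCTAC was at 1 of the 23 (4.35%), against 2.89% of other promoter peaks and 9% of the first 300 peaks at no ribosomal protein gene. In the 11 called members with an ATCGAT in the promoter, the one nearest the summit was a median of 30 bp away, and in 10 of the 11 within 50 bp. The shares at summits are not matched for distance from the TSS. Median positions were -21 bp at the members and -145 bp at other called genes. Whether position accounts for the gap was not tested. In the promoter stretch set by the TSS, ATCGAT was in 47.8% of called members and 37.5% of members without a combined peak. Other protein-coding genes with a combined peak held it there at 22.5%.

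The printed promoters show both kinds of letters in RpS28b, RpS10b, RpS19a and RpS25, which had a combined peak. The second copies RpS28a, RpS10a and RpS19b have neither in the printed stretch and had no combined peak. The second copies not printed do hold such letters in the longer stretch. RpS5b has the initiator letters, RpS15Ab the full DRE and RpS28-like an ATCGAT, and none of them had a combined peak. RpS27, the member with the highest score, has neither at the TSS used, and RpS3 and RpS9 have the initiator letters without a combined peak. RpS13, RpS24, RpS30 and RpS15Ab hold the full DRE and had no combined peak, so neither set of letters separated the called members from the others.

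**Figure D5:**
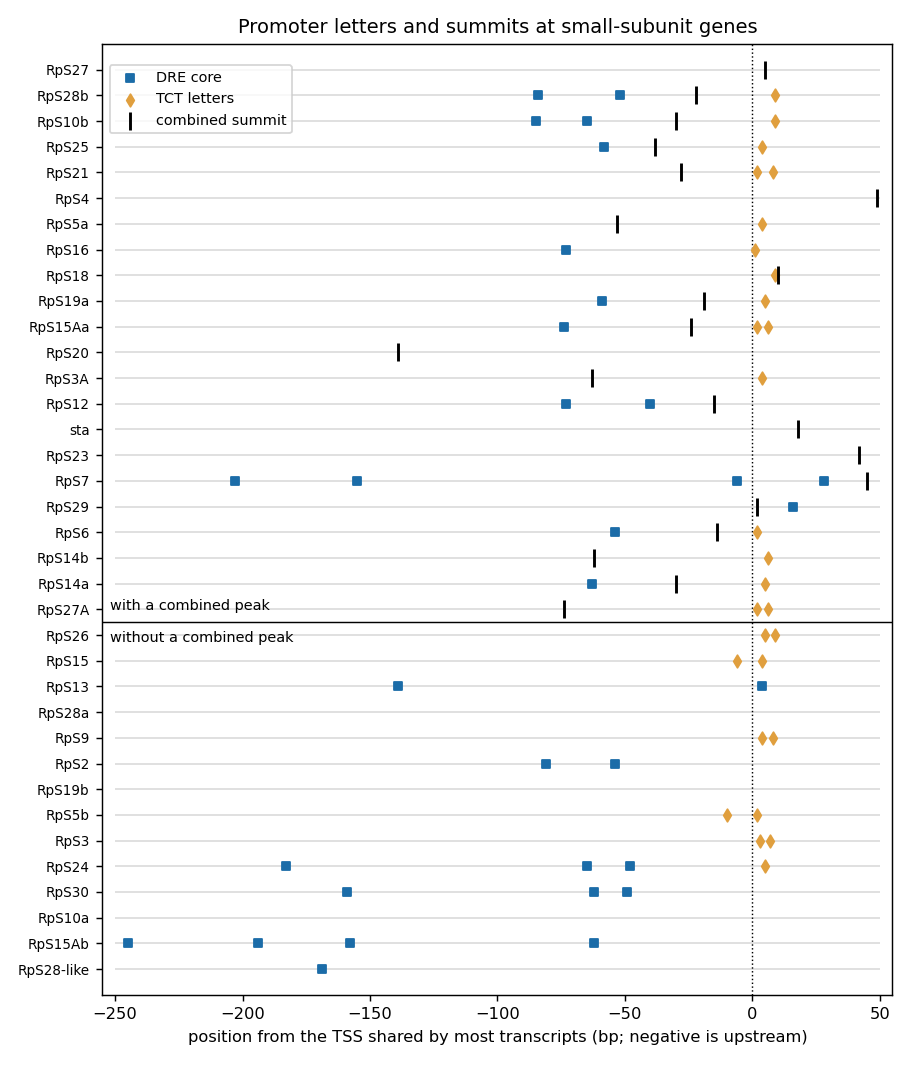
Map of ATCGAT (squares), CTTT near the TSS (diamonds) and combined summits (vertical marks) from 250 bp before to 50 bp after the TSS shared by most transcripts, for 36 of the 39 genes. Of the DRE cores in all 39 genes, 20 of 32 lie within 100 bp before the TSS; the RpS16 summit, at 346 bp from this TSS and near another TSS of the gene, is outside the map.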

How the data were processed

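Peak lists in narrowPeak format for dm6 were used: 1 per replicate, 1 on pooled replicates and the combined list that passed IDR, per the deposited descriptions. The authors' peak score is the deposited value in column 7, with no scaling between lists; the other value read is the summit offset. The aligner, the peak caller and their settings were not given in the sources used here. The descriptions name 1 further input file per list, which may be a control already used in calling. Sequencing depth is unknown, because a score is no count of reads. The dm3 lists were not used.

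TSSs came from Ensembl release 115 (BDGP 6.54) and sequence from the RefSeq release 6 genome. Each gene took its best summit within 500 bp of any TSS. Overlap means at least 1 bp. The position step was tested on simulated data. The members and lists were chosen with earlier results of these data known; 3 of the searched words were chosen after seeing the data. Replicate values are given for the 12 highest-scoring members, the duplicated genes and the members without a combined peak. Counts cover all 39 members, but 3 of them are not reported by name here. Genes and peaks are not replicates, so only the sign-flip test over replicates was run. Python 3.11.15, numpy 2.4.6, scipy 1.17.1, pandas 2.3.3, statsmodels 0.14.6 and matplotlib 3.10.9 were used. Whether the replicates came from separate collections beyond being numbered as biological replicates is not stated.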

Additional observations from a re-analysis of the deposited data

How the results depend on the processing

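The count of 23 small-subunit genes with a combined peak was 22 to 25 with other TSS windows, TSS choices and nearest-gene counting, and 17 among the first 1494 combined peaks. Requiring support from both other replicates gave 12 to 19 when 1 replicate was left out. The mean share with a top peak, 50.4%, was 67.5% with the top 10000 entries and 46.2 to 56.4% without 1 replicate. The share of all protein-coding genes also rises with list length, in replicate 1 from 11.1% for top peaks to 49.7% for the whole list. It is not given for the alternative counts and shares above, so their shifts are not read as particular to the members. The median relative score, 1.30, covers only the 14 called members with an entry in all 3 replicates. It leaves out the 9 called members with no entry in replicate 3. This median was 1.5 when divided by the median of each replicate's top peaks and 1.11 to 1.33 without 1 replicate. The median summit position, -21 bp, was -4 bp in the list of replicate 1 and -23.8 to -9.5 bp without 1 replicate. The small-subunit share minus the large-subunit share was -4.18 to -14.3 points over the top-peak alternatives, negative in each, while it was positive in the whole lists of replicates 1 and 2 and in the pooled list. With 100 bases before the TSS, GAGAG was in 2.56% of members, against 18.5% of all protein-coding promoters, and TATAAA in 15.4%, against 23.8%; TATAAA was thus below all promoters there and above them in the longer stretch. The TCT share with any annotated TSS was 74.4%. The cause of the other shifts was not tested.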
